A study of Homo sapiens with 13 samples.

Results

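Unlabelled RNA that accumulated by 4 h of chase was followed in 7937 protein-coding genes of K562, a widely used cell line from a human chronic myeloid leukaemia that has erythroid features and carries the BCR-ABL1 fusion kinase. These were the genes with 50 or more total counts in each of the 4 libraries of 0 h and 4 h, out of 19443 protein-coding genes and 59204 genes of any kind in the count tables. The unlabelled count of a gene is its total count minus its count of labelled reads, and values are given as unlabelled counts divided by the library's total counts and scaled to CPM (unlabelled CPM). The members were chosen by the size of their total counts only, so that the change between 0 h and 4 h was free to go either way.

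All chase cultures had taken up 4-thiouridine (4sU), a uridine analogue that cells build into new RNA, at 30 µM over 12 h, and the medium was renewed every 3 h. The cells were then washed in cold PBS and moved into medium with 3 mM uridine, which is meant to outcompete the remaining 4sU. They were collected at 0, 1, 2, 4, 8 and 12 h, in 2 replicates per time. A single further library came from cells that had no 4sU. In SLAM-seq, iodoacetamide modifies 4sU so that it is read as C instead of T, and reads with such conversions are counted as labelled. The libraries were made with a 3′ end kit, which reads mainly the end of each transcript, and contained 5% S2 spike-in RNA. The labels do not say whether replicates were separate cultures, so p-values measure only the spread between these libraries, which may be technical. No library of cells kept for 4 h without the wash was analysed here, so the end of 4sU, the uridine, the fresh medium, the washing and the passage of time cannot be told apart. In RNA from whole cultures, fewer cells with a transcript and less of it per cell cannot be told apart either.

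The level of an mRNA reflects the balance of its synthesis and its decay. Once the label is removed, a transcript that turns over quickly is replaced by unlabelled molecules within hours, whereas a long-lived transcript keeps its older molecules. Immediate early genes, many transcription factors, cell cycle regulators and feedback inhibitors of signalling are known for short-lived mRNAs, and genes of the ribosome, of glycolysis and of the respiratory chain for stable ones. Unlabelled reads at 0 h come from RNA older than the pulse and from labelled molecules whose read carries no called conversion, and both kinds are also part of the unlabelled reads at 4 h.

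The 4 libraries held 9004529 to 12798505 counts, of which 64.1% and 63.9% were unlabelled at 0 h and 73.7% in each replicate at 4 h, against 99.99% without 4sU. Total counts per spike-in count were 13.0 in both 0 h libraries and 13.3 and 13.4 at 4 h. The 4 h replicates stood apart in the composition of the spike-in genes: on the first principal component of the 12 chase libraries, replicate 1 scored -2.98, near the 0 h libraries at -3.42 and -3.59, and replicate 2 scored 2.53, near replicate 1 of 8 h at 2.53. Without replicate 2 of 4 h the median log2 change of unlabelled counts was 0.93, and without replicate 1 it was 0.89, against 0.92 with both. A fit with a lone 4 h library takes its spread from the 0 h pair, so its calls cannot show whether replicate 2 matters. The chi-square of unlabelled counts between replicates, per degree of freedom, was 2.21 at 0 h and 5.81 at 4 h. The median absolute log2 difference between replicates was 0.14 at both times. Of the erythroid and globin genes listed for this line, 35 of 43 reached the minimum, against 0 of 9 megakaryocyte genes, 1 of 12 granulocyte and monocyte genes (LYZ) and 1 of 11 lymphocyte genes (CD3D).

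Across the 7937 genes, unlabelled CPM summed to 496150 and 486216 at 0 h and to 592547 and 590455 at 4 h. Labelled CPM of the same genes summed to 315957 and 316218 at 0 h and to 235037 and 234303 at 4 h. The 2 replicates of a time lay far closer together than the 2 times, for either pool. On the means of the replicates, the members gained 100318 unlabelled CPM and their labelled CPM fell by 81418. The gain was the balance of 6420 genes that gained 134439 CPM together and 1517 genes whose sum fell by 34121 CPM. The median unlabelled share of a gene's own counts was 40.8%, 45.3%, 54.1%, 70.2%, 86.8% and 94.2% over the 6 times from 0 to 12 h. The median log2 change of unlabelled CPM from 0 h was 0.08, 0.38, 0.91, 1.29 and 1.41 for the 5 later times in order, and that of labelled CPM was -0.06, -0.15, -0.58, -1.61 and -2.80. The labelled pool of the median gene changed little over the first 2 h.

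In edgeR's quasi-likelihood test, with Benjamini-Hochberg adjustment over the 9036 genes of any kind tested, 5500 members (69.3%) had higher and 617 (7.77%) lower unlabelled counts at 4 h at a false discovery rate of 0.05, and 1820 were not called. Without replicate 1 of 0 h 334 members were called lower, and without replicate 2 of 0 h 410. Over all genes tested, the shares were 65.0% higher and 8.75% lower. The median log2 change of the members was 0.92, a 1.89-fold higher level, and the 10th and 90th percentiles were -0.22 and 1.87. A rise of more than 2-fold was seen in 3687 genes and of more than 4-fold in 565. For 6002 members (75.6%) both 4 h libraries lay above both 0 h libraries, and for 1092 (13.8%) both lay below. When libraries were scaled instead to the unlabelled count of the typical gene (TMM factors of the unlabelled counts), log2 changes moved down by 0.76, and 2962 members (37.3%) were called higher and 2373 (29.9%) lower, against 34.2% and 33.1% of all genes tested. The typical gene stands here for that TMM reference and not for the median gene, since the median member was at 0.16 on this scale. Counts in the sentences below are those of the scaling by total counts. Those relative to the typical gene are given beside them for each gene list.

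Total RNA of the same genes moved far less. Total counts were called higher in 2431 members (30.6%) and lower in 983 (12.4%), with a median log2 change of 0.11, against 28.3% and 13.3% of all genes tested. DESeq2 called 1454 higher, and without replicate 1 or replicate 2 of 0 h edgeR called 559 and 578 lower. All 2431 genes with higher total counts also had higher unlabelled counts. A further 2866 genes gained unlabelled RNA with no call for the total, among them HSPA8, the constitutive HSP70 chaperone, and TXNIP, a thioredoxin-binding arrestin. Another 203 gained unlabelled RNA while their total fell. MYC was 1 of these 203, whose labelled RNA was lost fast in the other libraries: their median log2 ratio of labelled CPM at 8 and 12 h to that at 1 and 2 h was -4.03, against -1.95 for all members. Their median unlabelled share went from 26.2% to 68.1%, their median log2 change was 0.81 for unlabelled and -0.46 for total counts, and 15 of them (7.39%) were ZNF zinc finger genes, which made up 2.76% of all members. Of the other lists, the haematopoietic factors had 4 of these genes, the elongation and the splicing list 3 each, and the rest 2 or fewer. Of the 617 genes with fewer unlabelled counts, 529 also had lower totals and 88 had no call for the total. In 251 genes the total fell and the unlabelled count was not called, as for DDIT4, an mTORC1 inhibitor induced by stress. Its unlabelled CPM was 44.5 and 55.2 at 0 h and 52.5 and 51.9 at 4 h, a log2 change of 0.07 ± 0.12 (SE) with adjusted p = 0.63 in edgeR's test, while its labelled CPM went from 102 to 7.98 and its total changed by -1.34 ± 0.10.

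**Figure D1:**
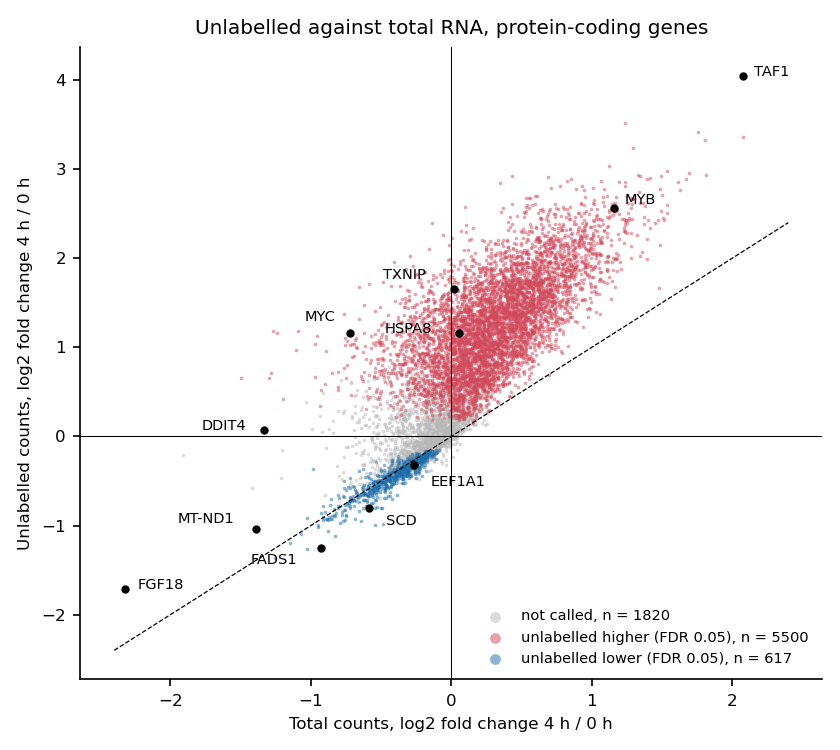
Each point is 1 of 7937 protein-coding genes, with the log2 fold change of total counts between 0 h and 4 h on the x axis and that of unlabelled counts on the y axis; red marks 5500 genes called higher and blue 617 called lower in unlabelled counts, and the dashed line marks equal change. Nearly all genes called higher lie above the dashed line, with TAF1 at the far end, and genes called lower lie close to it.

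The 12 largest rises, among genes with a mean of 5 or more unlabelled CPM whose replicates did not overlap between times, were led by TAF1 (ENSG00000147133, chrX:71366239-71532374, plus strand, GRCh38), the largest subunit of the general transcription factor TFIID. Unlabelled CPM of TAF1 was 4.67 and 4.66 at 0 h and 83.4 and 71.4 at 4 h. The replicates of each time lay close together and the log2 change was 4.05 ± 0.15 (SE), with adjusted p = 8.2e-09 in edgeR's test. HIVEP1, a zinc finger DNA-binding protein, had 0.795 and 1.11 at 0 h and 11.6 and 10.3 at 4 h, a log2 change of 3.52 ± 0.30. PUM3, a nucleolar Puf-domain protein, had 1.99 and 2.55 at 0 h and 25.2 and 23.2 at 4 h, a change of 3.42 ± 0.21. NGDN, a neuroguidin that takes part in small ribosomal subunit assembly, had 13.7 and 12.4 at 0 h and 139 and 125 at 4 h, a change of 3.33 ± 0.12. In all 3 the groups were far apart compared with the gap between replicates. RFWD3, a ubiquitin ligase of the DNA damage response, had 20.8 and 17.0 at 0 h and 148 and 145 at 4 h and a log2 change of 2.95 ± 0.12. RALGDS, an exchange factor for Ral GTPases that acts below Ras, had 5.37 and 4.78 at 0 h and 38.8 and 41.9 at 4 h and a change of 2.98 ± 0.15. The other 6 were FBXO10, RNF182, PIP5K1A, SDC4, PHC3 and ZNF468, with log2 changes from 3.36 for FBXO10 down to 2.92 for ZNF468. All 12 also rose in total counts, by log2 0.43 for ZNF468 to 2.08 for FBXO10 and 2.08 for TAF1.

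These 12 genes had a low unlabelled share at 0 h, from 12.3% to 38.4%, and 65.0% to 89.7% at 4 h. In 5 of the 12 the mean labelled CPM was also higher at 4 h than at 0 h: from 23.5 to 41.6 in TAF1, 43.3 to 65.7 in NGDN, 8.32 to 11.6 in PUM3, 40.4 to 45.3 in RFWD3 and 13.8 to 14.5 in RALGDS. That was seen in 456 of the 7937 members. In 11 of the 12 the mean total CPM at 0 h was below that of the single library without 4sU, as in TAF1, where that library had 125 unlabelled CPM. That held as well for 9 of the 12 largest falls, for 2923 of the 5500 members called higher, 343 of the 617 called lower and 4210 of all 7937.

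The 12 largest falls were smaller in size. FGF18 (ENSG00000156427, chr5:171419656-171457623, plus strand), a secreted growth factor, had the largest, from 9.04 and 8.55 at 0 h and 2.03 and 3.40 at 4 h. Its log2 change was -1.71 ± 0.28 (SE), with adjusted p = 1.4e-04 in edgeR's test, and it was at 0.172 CPM without 4sU. FADS1 (ENSG00000149485, chr11:61799625-61829318, minus strand), the delta-5 fatty acid desaturase, was the most abundant of the 12. Its unlabelled CPM was 356 and 381 at 0 h and 147 and 163 at 4 h, and the fall of -1.25 ± 0.08 on the log2 scale was many times its error (adjusted p = 8.9e-08). PLCD1, a phospholipase C, had 21.3 and 22.9 at 0 h and 7.74 and 9.48 at 4 h, a log2 change of -1.36 ± 0.17. IGFBP4, which binds insulin-like growth factors, had 62.4 and 62.7 at 0 h and 25.4 and 29.2 at 4 h, a change of -1.20 ± 0.12. MT-ND1, a mitochondrially encoded subunit of complex I, had 109 and 126 at 0 h and 49.9 and 64.5 at 4 h, a change of -1.04 ± 0.12. The 4 h libraries were below the 0 h libraries in each. METTL7A, KISS1R, CISD3, PIR and RIDA were also among the 12, with log2 changes from -1.26 for METTL7A to -0.98 for RIDA. Total counts fell in all 12. The unlabelled share of the gene's own counts was called lower in 3 of them, FADS1 and RIDA included, and higher in 2, so that for most of the 12 no change of share was called.

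**Figure D2:**
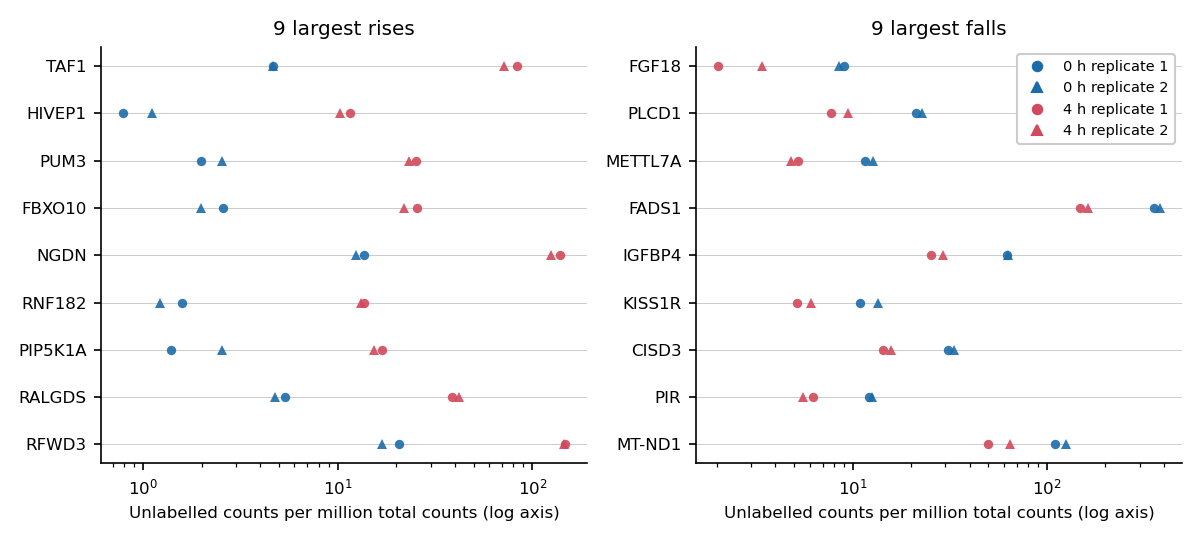
Unlabelled CPM (log axis) in each of the 4 libraries for the 9 genes with the largest rises (left) and the 9 with the largest falls (right); blue is 0 h, red is 4 h, circles are replicate 1 and triangles replicate 2. The 2 replicates of a time sit close together, and the red and blue points do not overlap for any of the 18 genes, which the choice of the genes required.

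Genes that switch on within minutes of a stimulus had more unlabelled RNA at 4 h in nearly all cases. Of 45 immediate early genes, 20 reached the minimum, and 19 rose (95%) and 0 fell, against 69.3% and 7.77% of all members. Their median log2 change was 1.88, against 0.92 for all members. Relative to the typical gene, 16 of the 20 were called higher and 1 lower, against 37.3% and 29.9% of all members. For total counts 12 were higher and 3 lower, against 30.6% and 12.4%. IER5, a regulator of the heat shock factor HSF1, had the highest change: its unlabelled CPM was 14.0 and 14.5 at 0 h and 96.8 and 98.1 at 4 h (log2 change 2.77 ± 0.12, adjusted p = 1.4e-08 in edgeR's test). IER2, a nuclear immediate early protein, had 62.6 and 58.6 at 0 h and 249 and 270.0 at 4 h, a change of 2.10 ± 0.09. JUNB, an AP-1 subunit, had 8.64 and 6.66 at 0 h and 25.2 and 21.8 at 4 h, a change of 1.61 ± 0.18. ATF3, a stress-induced partner of AP-1 proteins, was the lowest of the list and was not called: it had 6.06 and 10.1 at 0 h and 5.00 and 5.81 at 4 h, with adjusted p = 0.072. DUSP1, the MAP kinase phosphatase, missed the minimum in a single library, with unlabelled counts of 13 and 8 at 0 h and 53 and 39 at 4 h. FOS was nearly absent, with unlabelled counts of 1 and 1 at 0 h and 16 and 4 at 4 h.

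Of 27 haematopoietic transcription factors, 20 were measured, 16 rose (80.0%, against 69.3% of all members) and 0 fell, with a median log2 change of 0.79, below the 0.92 of all members. Against the typical gene, 7 were higher (35.0%) and 5 lower (25%), near the 37.3% and 29.9% of all members. Total counts were higher in 4 and lower in 5, against 30.6% and 12.4% of all members. MYB (ENSG00000118513, chr6:135181315-135219173, plus strand), a factor that keeps blood progenitors dividing, had the highest change of the list. Its unlabelled CPM was 35.7 and 39.9 at 0 h and 217 and 230.4 at 4 h, a log2 change of 2.57 ± 0.09 (SE) with adjusted p = 8.2e-09 in edgeR's test, and its total rose by 1.16. MYC (ENSG00000136997, chr8:127735434-127741434, plus strand), a broad activator of growth genes, had 19.6 and 19.4 at 0 h and 51.1 and 36.0 at 4 h. Both 4 h libraries lay above both 0 h libraries, and the log2 change was 1.16 ± 0.16 with adjusted p = 4.1e-05. Labelled MYC went from 71.0 to 11.4 CPM, more than the gain of unlabelled RNA, and the total fell by 0.72 on the log2 scale. GATA1, the master regulator of erythroid genes, did not pass: it had 45.4 and 37.8 at 0 h and 48.8 and 47.6 at 4 h, with adjusted p = 0.13. LYL1, a helix-loop-helix factor related to TAL1, was the lowest of the list at 0.09 ± 0.09 and was not called. Relative to the typical gene GATA1 was at -0.55 and LYL1 at -0.67, both called lower. Among the 219 measured of 507 ZNF zinc finger genes, many of them repressors of transposable elements, 197 rose and 1 fell, with a median of 1.14. Against the typical gene, 92 of the 219 were higher and 13 lower. The extremes were ZNF468 at 2.92 ± 0.25 and ZNF534, which was not called, at -0.61 ± 0.26.

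SOCS and PIM genes, ID genes and clock genes, many of them feedback regulators of their own pathways, had more unlabelled RNA at 4 h in nearly every measured member. Of all members 69.3% were called higher and 7.77% lower, and relative to the typical gene 37.3% and 29.9%. All 9 measured SOCS and PIM genes, some of which are induced by STAT signalling, rose, with a median log2 change of 1.83. Total counts of the 9 were higher in 4 and lower in 0, against 30.6% and 12.4% of all members. Relative to the typical gene 7 were higher. SOCS3, an inhibitor of JAK kinases, had unlabelled CPM of 3.28 and 2.89 at 0 h and 21.0 and 15.2 at 4 h, a change of 2.55 ± 0.24. PIM2, a survival kinase, had the smallest change of the list with 145 and 131 at 0 h and 223 and 225 at 4 h, a change of 0.70 ± 0.08, and was at -0.06 relative to the typical gene with no call. ID genes and BMP feedback genes rose in 6 of 6 (median 1.59, 5 relative to the typical gene), from ID2, an inhibitor of helix-loop-helix factors, at 1.29 ± 0.27 to SKI, a repressor of SMAD signalling, at 2.16 ± 0.13. Circadian clock genes rose in 8 of 9 (median 1.60, 5 relative to the typical gene). CRY1, a repressor in the clock loop, led with 3.58 and 1.55 at 0 h and 16.0 and 14.8 at 4 h, a change of 2.56 ± 0.28, and BHLHE40 was not called at 0.61 ± 0.29. NF-kB and inflammatory genes had 5 of 16 members measured, and 5 rose with a median of 1.06 (2 relative to the typical gene), NFKB1 the most at 1.92 ± 0.26. Of 18 measured classical p53 targets 13 rose (72.2%, near the 69.3% of all members) and 2 fell. K562 is p53-deficient, so the name of this list does not stand for p53 activity. The median of the list was 1.33 against 0.92 (11 higher and 4 lower relative to the typical gene). Its changes went from -0.73 ± 0.12 for FDXR, a mitochondrial reductase, to 2.10 ± 0.09 for AEN, a nuclease of apoptosis. Of 11 measured BCL2 family genes 6 rose (54.5%, below the share of all members) and 0 fell, with a median of 0.45 (3 higher and 5 lower relative to the typical gene). MCL1, a short-lived survival protein, had unlabelled CPM of 37.5 and 44.0 at 0 h and 222 and 182 at 4 h, a change of 2.31 ± 0.12, and BAD, a pro-apoptotic member, was not called at -0.43 ± 0.25. Interferon response genes went the other way, with 2 of 7 higher, 4 lower and a median of -0.30 (0 higher and 4 lower relative to the typical gene). IFITM1, a membrane protein that restricts viruses, had 484 and 464 at 0 h and 312 and 347 at 4 h, a change of -0.52 ± 0.07, in a family of near-identical genes whose reads may be split.

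Lists of genes that respond to glucose and to amino acids differed in how many members rose. Among the 10 glucose-sensing MondoA targets and partners, 9 rose (90%, against 69.3% of all members) and 0 fell, with a median log2 change of 1.85 (8 higher relative to the typical gene). TXNIP had unlabelled CPM of 46.5 and 49.6 at 0 h and 161 and 141 at 4 h, a change of 1.65 ± 0.10 with adjusted p = 6.9e-08 in edgeR's test, while labelled TXNIP went from 129 to 27.6 CPM and its total did not pass (0.02 ± 0.10, adjusted p = 0.91). KLF10, a TGF-beta induced repressor, had the highest change of the list at 2.44 ± 0.31, and MLX, the DNA-binding partner of MondoA, was not called at 0.51 ± 0.26. Of 27 measured ATF4 targets, 20 rose and 1 fell, with a median of 1.02. The share called higher, 74.1%, was near that of all members. Relative to the typical gene 44.4% of this list was higher and 25.9% lower, against 37.3% and 29.9% of all members. PPP1R15A (GADD34), which reverses eIF2α phosphorylation, led with 25.6 and 30.3 at 0 h and 133 and 130.4 at 4 h, a change of 2.24 ± 0.11. CBS, an enzyme of homocysteine metabolism with a near-identical copy in this genome build, was the lowest at -0.46 ± 0.37 with no call. CHAC1, a glutathione-degrading ATF4 target, missed the minimum in a single library, with 55 and 55 unlabelled counts at 0 h and 47 and 42 at 4 h. Among the 20 aminoacyl-tRNA synthetases 11 rose (55.0%, below the 69.3% of all members) and 1 fell, with a median of 0.28 (4 higher and 12 lower relative to the typical gene), from QARS1 at -0.28 ± 0.08 to AARS1 at 1.51 ± 0.10. The ATF4 mRNA itself had 293 and 293 at 0 h and 635 and 719 at 4 h, a change of 1.21 ± 0.07, and was among the 10 largest gains in CPM.

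Promoter sequence was matched for 6616 of the 7937 members by symbol in RefSeq's table of GRCh38.p14, as 250 bases before to 50 bases after the transcript start. Of 4 short motifs searched on both strands, the cAMP response element core TGACGTC stood in 7.17% of the promoters of genes called higher, 5.24% of those called lower and 4.66% of all protein-coding promoters. It stood in 3 of the 16 immediate early promoters matched (JUND, MAFF and SPRED2). The E-box CACGTG stood in 11.6% of genes called higher, 10.1% of those called lower and 8.90% of all. It stood in 2 of 8 MondoA list promoters (MLX and ARRDC4). The amino acid response element core TGATGCA stood in 1 of 23 ATF4 target promoters (PHGDH), in 0 of the 18 of these that were called higher, in 0.886% of all genes called higher, 1.01% of those called lower and 2.02% of all. The sterol regulatory element TCACNCCAC stood in 1 of 19 cholesterol gene promoters (SREBF2), in 0 of the 4 of these called higher, in 1.08% of all genes called higher, 0.806% of those called lower and 1.18% of all. Among all 6616 matched members the 4 motifs stood in 6.74%, 11.4%, 1.09% and 1.10% of promoters, in the order above. These shares are the nearer comparison for genes called higher or lower, since all protein-coding promoters include genes that are not members. Letters found in this window are a description and not a mapped site. The 250 bases before the start are printed for PPP1R15A, the highest ATF4 target, and for ARRDC4, an arrestin of the TXNIP family, with the motif in capitals. They were chosen after the matches were seen. In PPP1R15A the capitals hold the cAMP response element core on both strands, at overlapping positions.
PPP1R15A, chr19:48872171-48872420, plus strand: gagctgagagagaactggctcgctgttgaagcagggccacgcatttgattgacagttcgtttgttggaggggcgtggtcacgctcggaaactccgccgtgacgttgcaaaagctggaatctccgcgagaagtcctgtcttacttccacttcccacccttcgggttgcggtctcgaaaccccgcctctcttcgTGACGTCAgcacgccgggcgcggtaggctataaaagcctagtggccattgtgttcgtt
ARRDC4, chr15:97960453-97960702, plus strand: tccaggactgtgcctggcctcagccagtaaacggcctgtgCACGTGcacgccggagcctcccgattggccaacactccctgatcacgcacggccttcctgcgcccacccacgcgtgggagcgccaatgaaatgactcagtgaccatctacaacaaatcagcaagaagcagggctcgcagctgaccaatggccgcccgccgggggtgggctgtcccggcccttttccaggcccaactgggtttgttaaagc
ARRDC4 had unlabelled CPM of 2.68 and 3.33 at 0 h and 11.0 and 7.51 at 4 h, a log2 change of 1.63 ± 0.28 with adjusted p = 2.0e-04 in edgeR's test.

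Among cell cycle genes and genes of the RNA machinery, 86.7% to 95.8% of each list was called higher, against 69.3% of all members. Relative to the typical gene the shares were 47.4% to 66.7% higher and 10.0% to 31.6% lower, against 37.3% and 29.9%. Of 30 measured G2/M genes 28 rose and 0 fell, with a median log2 change of 1.31. Relative to the typical gene 20 were higher and 3 lower. In total counts 16 of the 30 rose, against 30.6% of all members. BUB1B, a spindle checkpoint kinase, had unlabelled CPM of 4.87 and 7.11 at 0 h and 31.3 and 28.0 at 4 h, a change of 2.32 ± 0.19. CDC25B, a phosphatase that activates CDK1, was not called at -0.14 ± 0.17. Of 28 measured G1/S genes 25 rose and 1 fell, with a median of 1.13 (15 higher and 6 lower relative to the typical gene). E2F3, an activator of S phase genes, had 25.8 and 31.9 at 0 h and 141 and 119 at 4 h, a change of 2.17 ± 0.13. Thymidylate synthase TYMS was the lowest at -0.27 ± 0.10. Among 24 transcription elongation and BET genes 23 rose and 1 fell (median 1.17, 13 higher and 5 lower relative to the typical gene), and the extremes were both subunits of the NELF pausing complex, NELFA at 2.15 ± 0.14 and NELFE at -0.60 ± 0.14. Of 45 mRNA decay genes 39 rose and 3 fell (median 1.19, 24 higher and 8 lower relative to the typical gene). PATL1, a decapping activator, had 9.84 and 11.7 at 0 h and 68.1 and 61.3 at 4 h, a change of 2.59 ± 0.14, and EXOSC5, a subunit of the exosome, had -0.40 ± 0.12. Splicing kinases and SR proteins rose in 18 of 19 (median 0.98, 9 higher and 6 lower relative to the typical gene), CLK3 the most at 2.03 ± 0.15, with SRSF9 not called at -0.16 ± 0.09.

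Stress gene lists were mixed. Of all members 69.3% were called higher and 7.77% lower, and relative to the typical gene 37.3% and 29.9%. Called higher were 72.7% of heat shock, 60% of ER stress, 47.6% of NRF2, 78.6% of transporter and 63.2% of nucleotide metabolism genes. In the same order 9.09%, 10%, 38.1%, 0% and 15.8% were called lower, so that by these shares the NRF2 list lay furthest from all members. Of 22 heat shock genes 16 rose and 2 fell, with a median log2 change of 1.10 (12 higher and 7 lower relative to the typical gene). HSF2, a heat shock transcription factor, had unlabelled CPM of 11.9 and 10.1 at 0 h and 67.5 and 65.5 at 4 h, a change of 2.59 ± 0.13, and HSPB1, the small chaperone HSP27, had 993 and 916 at 0 h and 739.5 and 729 at 4 h, a change of -0.38 ± 0.07. Of 20 measured ER stress genes 12 rose and 2 fell (median 0.61, 5 higher and 10 lower relative to the typical gene). SEL1L, a component of ER-associated degradation, was highest at 2.18 ± 0.28, and PDIA6, a disulfide isomerase, lowest at -0.62 ± 0.08. NRF2 targets of the oxidative stress response split into 10 higher and 8 lower of 21 (median 0.49, 4 higher and 10 lower relative to the typical gene). SRXN1, which repairs peroxiredoxins, had 13.3 and 15.5 at 0 h and 77.3 and 66.4 at 4 h, a change of 2.32 ± 0.14, and thioredoxin TXN had 301 and 284 at 0 h and 273 and 188 at 4 h, a change of -0.34 ± 0.13 with adjusted p = 0.032 in edgeR's test. Its 4 h replicates differed from each other more than the nearer of them differed from 0 h. Amino acid and nucleoside transporters rose in 11 of 14 and fell in 0 (median 0.93, 6 higher and 2 lower relative to the typical gene), SLC7A1, a cationic amino acid transporter, the most at 1.79 ± 0.13. Among 19 measured pyrimidine and nucleotide metabolism genes 12 rose and 3 fell (median 0.62, 3 higher and 7 lower relative to the typical gene), from ATIC at -0.52 ± 0.09 to PPAT at 1.62 ± 0.14, both enzymes of purine synthesis.

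Cholesterol and fatty acid synthesis genes divided within the pathway. Of 27 measured genes 7 rose (25.9%) and 12 fell (44.4%) in unlabelled counts, against 69.3% and 7.77% of all members. Their median log2 change was -0.12. Relative to the typical gene 3 were higher (11.1%) and 19 lower (70.4%), against 37.3% and 29.9% of all members. Total counts were higher in 2 and lower in 19, against 30.6% and 12.4% of all members. HMGCS1, an early enzyme of cholesterol synthesis, had unlabelled CPM of 23.5 and 22.8 at 0 h and 44.6 and 43.9 at 4 h, a change of 0.93 ± 0.12 with adjusted p = 1.6e-05 in edgeR's test, and its total did not pass (-0.21 ± 0.08, adjusted p = 0.066). SCD, the stearoyl-CoA desaturase, had the lowest change of the list with 252 and 253 at 0 h and 147 and 142 at 4 h, a change of -0.80 ± 0.07. Its 4 h libraries lay well below the 0 h libraries, as did those of FADS1, which was not on the list. MSMO1, a sterol oxidase chosen after its values were seen, had 6.16 and 5.44 at 0 h and 9.69 and 8.59 at 4 h: its unlabelled counts rose by 0.65 ± 0.21 while its total changed by -1.29 ± 0.13. Glycolysis enzymes, with 16 measured, had 3 higher and 7 lower (median -0.10, 2 higher and 13 lower relative to the typical gene). HK2, the inducible hexokinase, had 6.16 and 5.33 at 0 h and 25.1 and 24.5 at 4 h, a change of 2.10 ± 0.17, PFKL, the liver phosphofructokinase, had -0.45 ± 0.12, and GAPDH had 2326 and 2093 at 0 h and 2404 and 2631 at 4 h, a change of 0.19 ± 0.07 (adjusted p = 0.03). Relative to the typical gene GAPDH was at -0.57 and was called lower.

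Genes known for abundant, long-lived mRNAs were mostly not called higher. The shares called higher were 5.95% for ribosomal protein, 8.97% for respiratory chain and 36.1% for proteasome genes, against 69.3% of all members. The shares called lower were 11.9%, 33.3% and 5.56%, against 7.77%. Of 84 measured cytosolic ribosomal protein genes 5 rose, 10 fell and 69 were not called, with a median log2 change of -0.06. Their median unlabelled share was 82.7% at 0 h and 82.4% at 4 h. RPS27L, a ribosomal protein paralogue, was lowest with 67.6 and 64.3 at 0 h and 40.9 and 41.8 at 4 h, in unlabelled CPM, a change of -0.67 ± 0.10, and RPL26L1, another paralogue, highest at 0.80 ± 0.14. Many genes of this list have processed copies in the genome whose reads may be split. Of 78 nuclear encoded respiratory chain subunits 7 rose and 26 fell (median -0.14). Total counts fell in 27 and rose in 1, against 12.4% and 30.6% of all members. NDUFV2, of complex I, had 38.7 and 32.5 at 0 h and 83.3 and 99.8 at 4 h, a change of 1.36 ± 0.13, and SDHC, of complex II, had 106 and 111 at 0 h and 68.1 and 64.8 at 4 h, a change of -0.71 ± 0.09. Of 36 measured proteasome subunits 13 rose and 2 fell (median 0.09), from -0.39 ± 0.11 for PSMB10 to 1.87 ± 0.12 for PSMD5. On the scale of the typical gene, 80 of the 84 ribosomal protein genes, 74 of the 78 respiratory chain genes and 23 of the 36 proteasome genes were called lower. Of all members 29.9% were called lower on that scale, which moves log2 changes down. The cytoskeletal gene ACTB had 1368 and 1294 at 0 h and 1229.8 and 1207 at 4 h and was not called (adjusted p = 0.081). EEF1A1, the translation elongation factor, had 8694 and 8459 at 0 h and 7426 and 6279 at 4 h, the largest loss in CPM, with a change of -0.32 ± 0.08 (adjusted p = 0.0021).

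Mitochondrially encoded mRNAs had little label left at 4 h, and few gained unlabelled counts. Of 10 measured 2 rose (20.0%, against 69.3% of all members) and 5 fell (50.0%, against 7.77%). Their median log2 change was -0.19, and their median unlabelled share went from 89.6% to 98.0%. All 10 were lower relative to the typical gene, against 29.9% of all members. In total counts 1 was higher and 6 lower, against 30.6% and 12.4% of all members. MT-ND4 had unlabelled CPM of 1497 and 1684 at 0 h and 2022 and 2342 at 4 h, a change of 0.46 ± 0.08 (adjusted p = 2.6e-04 in edgeR's test), and MT-ND2 had 4844 and 5131 at 0 h and 5500.5 and 6393 at 4 h, a change of 0.25 ± 0.07 (adjusted p = 0.0084). Both are complex I subunits, as is MT-ND1, which fell, and relative to the typical gene they were at -0.30 and -0.50. MT-CYB, of complex III, was not called with 2079 and 2171 at 0 h and 2122 and 2475 at 4 h, while its labelled CPM went from 226 to 30.8. The list of replication-dependent histones, most of whose mRNAs lack poly(A) tails and are captured poorly by this kit, had 13 of 77 genes measured, 5 higher and 4 lower (median -0.23, 0 higher and 8 lower relative to the typical gene), from -0.97 ± 0.25 for H2BC4 to 1.12 ± 0.29 for H2BC21. This list also holds H1-10, a replication-independent linker histone gene, which rose by 0.49 ± 0.12. Without H1-10, 4 of 12 were higher and 4 lower, with a median of -0.26. Their near-identical copies can share reads.

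Erythroid genes, which mark this line, were split. Of 35 measured 13 rose (37.1%, against 69.3% of all members) and 6 fell (17.1%, against 7.77%), with a median log2 change of 0.04. Relative to the typical gene 7 were higher (20.0%, against 37.3%) and 21 lower (60.0%, against 29.9%). HEMGN, a haematopoietic nuclear protein, had unlabelled CPM of 6.26 and 7.11 at 0 h and 49.4 and 33.0 at 4 h, a change of 2.63 ± 0.21. TFRC, the transferrin receptor that imports iron, had 35.3 and 38.8 at 0 h and 136 and 129 at 4 h, a change of 1.84 ± 0.10 with adjusted p = 3.9e-08 in edgeR's test, and its labelled CPM went from 124 to 59.3. HBG1, the fetal globin and most abundant of the genes named here from this list, had 2996 and 2777 at 0 h and 2627 and 2744 at 4 h and was not called (adjusted p = 0.15), and its labelled CPM barely moved, from 1706 to 1625. HBD, a minor adult globin, was lowest at -0.44 ± 0.19 (adjusted p = 0.049). Globin genes are close copies of each other, so their reads may be split. ABL1 (ENSG00000097007, chr9:130713946-130887675, plus strand), whose kinase domain is part of the BCR-ABL1 fusion, had 15.4 and 12.4 at 0 h and 85.0 and 86.8 at 4 h, a change of 2.62 ± 0.13 with adjusted p = 2.5e-08. Reads at the 3′ end of ABL1 can come from the fusion or from the normal allele, and their parts were not told apart. The other blood markers that reached the minimum, LYZ and CD3D, were not called.

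**Figure D3:**
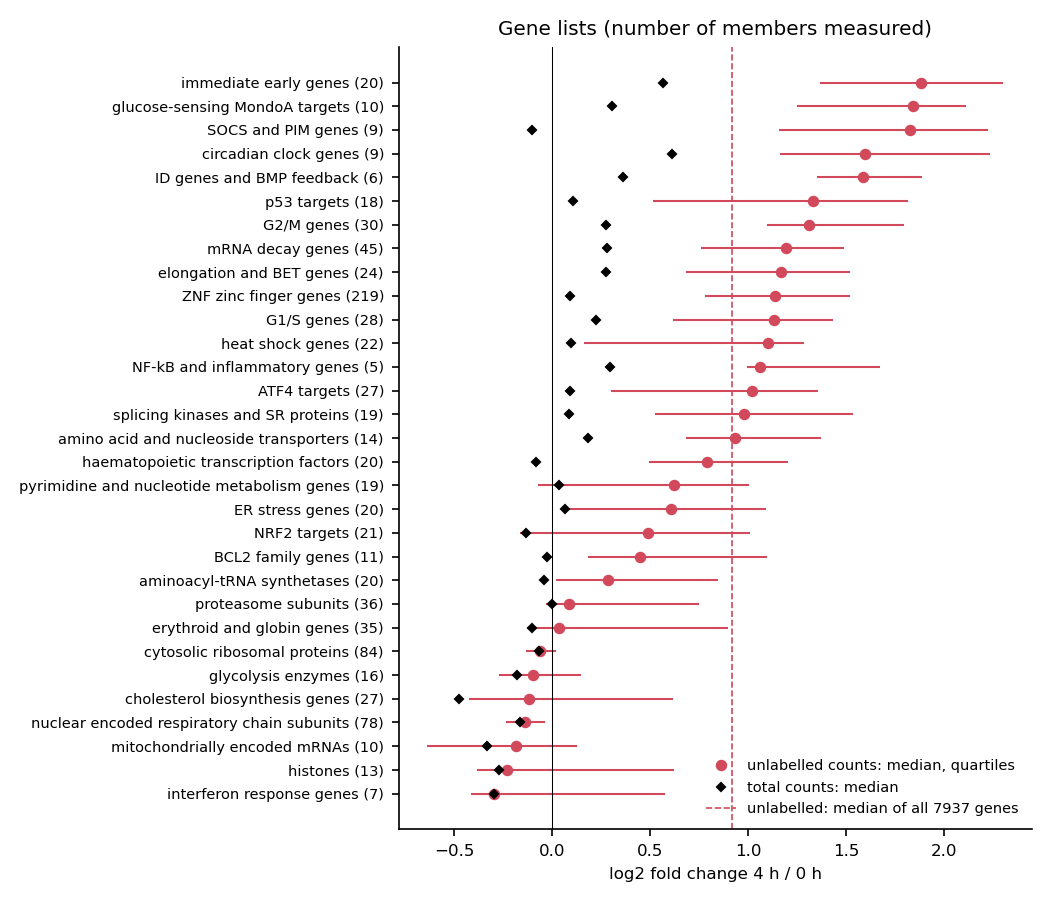
Median log2 fold change of unlabelled counts (red circles, bars from the 25th to the 75th percentile) and of total counts (black diamonds) for the gene lists with 5 or more measured members, with the number measured in brackets; the dashed line is the median of all 7937 genes, 0.92. Immediate early genes are at 1.88 and ribosomal protein genes at -0.06, while the medians of total counts stay closer to 0 for most lists.

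The genes that carried most of the gain by CPM, chosen after their values were seen, were abundant ones. HSPA8 (ENSG00000109971, chr11:123057489-123063230, minus strand) had unlabelled CPM of 563 and 547 at 0 h and 1309.6 and 1179.8 at 4 h, a log2 change of 1.16 ± 0.07 with adjusted p = 6.7e-08 in edgeR's test, and its labelled CPM went from 1461 to 853. TUBA1C, an alpha tubulin, had 333 and 354 at 0 h and 897 and 975 at 4 h, a change of 1.45 ± 0.07, whereas TUBA1B, a close copy that can share reads with it, had 3115 and 3253 at 0 h and 2695 and 2802 at 4 h, a change of -0.21 ± 0.06. DDX21, a nucleolar RNA helicase, had 111 and 109 at 0 h and 564 and 554 at 4 h, a change of 2.35 ± 0.07. H3-3B, a replication-independent histone H3.3 gene with a poly(A) tail, had 186 and 186 at 0 h and 636 and 569 at 4 h, a change of 1.70 ± 0.08. PRAME, a tumour antigen, had 959 and 945 at 0 h and 1463 and 1479.8 at 4 h, a change of 0.63 ± 0.06, while its labelled CPM went from 1552 to 714. PRAME was at -0.13 relative to the typical gene, with no call. The largest losses after EEF1A1 were those of NPM1, the nucleolar chaperone, with 3159 and 3131 at 0 h and 2681 and 2619 at 4 h and a change of -0.25 ± 0.06 (adjusted p = 0.0021), TUBA1B, RPL27A and RPL34.

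Genes differed in the time at which their unlabelled RNA was highest. Of the 5500 members called higher, the highest mean unlabelled CPM of the 6 times fell at 12 h in 3588, at 8 h in 1312, at 4 h in 544, at 2 h in 45 and at 1 h in 11. In TAF1 mean unlabelled CPM was 4.67, 11.3, 33.0, 77.4, 89.5 and 78.9 over the 6 times from 0 to 12 h, so that most of the gain had been made by 4 h. In MYB the values were 37.8, 59.9, 63.4, 224, 367 and 313, with the largest step between 2 h and 4 h. Unlabelled MYC was 19.5, 17.4 and 15.7 at 0, 1 and 2 h and then 43.5 at 4 h, while labelled MYC was 71.0, 50.0, 16.0 and 11.4. Labelled MYC had thus dropped by 2 h, before unlabelled MYC was higher. HSPA8 gained through to 12 h, from 1245 at 4 h to 2202. FADS1 went the other way, with 369, 313, 273, 155, 79.2 and 72.1, and had 689 without 4sU. EEF1A1 went from 6853 at 4 h to 5175 at 12 h. Unlabelled EGR1 was highest at 1 h, with 3.09, 57.2, 18.3, 15.1, 23.6 and 26.0. Labelled EGR1 was also highest at 1 h, with 37.2 against 4.67 at 0 h. Some RNA made early in the chase may thus be counted as labelled, which was not tested. Unlabelled KLF10 was highest at 2 h, with 1.88, 8.82, 12.5, 10.2, 6.96 and 5.70. The differences between these other times were not tested.

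**Figure D4:**
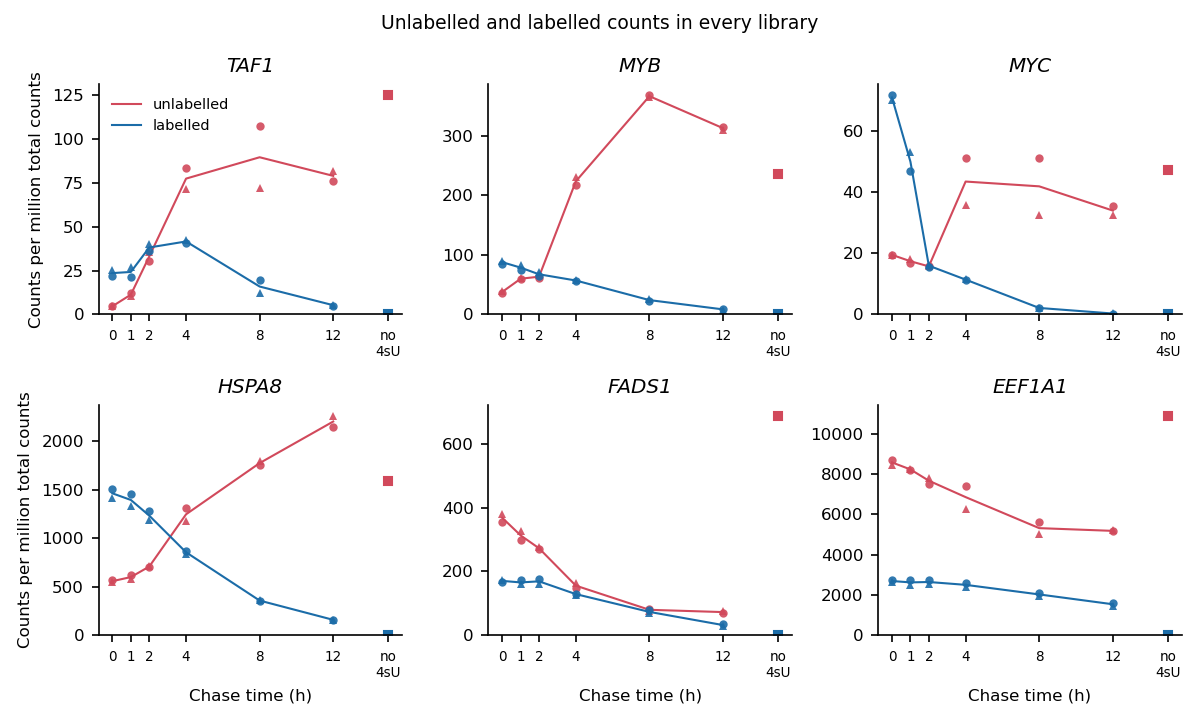
Unlabelled (red) and labelled (blue) CPM of 6 genes against chase time in hours, with circles for replicate 1, triangles for replicate 2, lines through the means and squares for the single library without 4sU. Unlabelled TAF1, MYB and HSPA8 rise through 4 h, unlabelled MYC rises after 2 h, and unlabelled FADS1 and EEF1A1 decline.

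A change in a gene's unlabelled share does not depend on how libraries are scaled. When unlabelled counts were tested against the total of the same gene, the share was higher in 6092 members (76.8%) and lower in 111 (1.40%), against 73.2% and 1.41% of all genes tested. In 51 of the 111 the mean labelled CPM was higher at 4 h than at 0 h, and in 95 the unlabelled count had fallen. Total counts fell in 74 of the 111 and rose in 0. Their median unlabelled share was 75.1% at 0 h and 70.3% at 4 h, and they included 9 of the 84 ribosomal protein genes (10.7%) and 7 of the 78 respiratory chain subunits (8.97%), against 1.40% of all members. The cholesterol, ER stress and NRF2 lists had 2 each, and no other list had more than 1. Among the largest drops in share, chosen after their values were seen, were those of RIDA, a deaminase of reactive imines, from 72.9% to 51.9%, and FADS1, from 68.4% to 54.7%. MPC1, a subunit of the mitochondrial pyruvate carrier, went from 61.2% to 50.3%, and its unlabelled CPM was 36.1 and 39.0 at 0 h and 21.3 and 24.8 at 4 h while its labelled CPM went from 23.8 to 22.7. In CAMTA1, a transcription activator, the share went from 66.0% to 53.1% and in C8orf88 from 69.1% to 56.2%. Labelled CPM went from 6.23 to 7.88 in RIDA and 15.2 to 14.9 in CAMTA1.

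Members were also ordered by features that, except for the total level at 0 h, the choice of genes did not use. The first was the loss of label in the libraries of 1, 2, 8 and 12 h, as the log2 ratio of labelled CPM at 8 and 12 h to that at 1 and 2 h, which 26 members lacked. In the 1583 genes with the fastest loss the median log2 change of unlabelled counts at 4 h was 1.22, with 90.7% called higher and 0.505% lower. In the 1582 with the slowest it was -0.04, with 29.6% higher and 23.8% lower. The middle 3 groups had 1.22, 1.06 and 0.66. Median total changes were 0.07 in the fastest and -0.07 in the slowest group, and the highest of the 5 was 0.23, so that total RNA did not follow the same order.

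The share of T in the last 250 bases of the longest coding transcript (GENCODE 29) bears on how many chances a read has to show a conversion. In the group with the fewest T, with a median of 21.2%, the median unlabelled share at 0 h was 61.7%, and it was 30.2% in the group with the most, with a median of 40.0% T. At 4 h the shares were 77.8% and 66.5%. The median log2 change of unlabelled counts was 0.30, 0.74, 0.99, 1.19 and 1.32 from the lowest to the highest group, with 46.7% and 85.8% called higher at the ends. Unlabelled reads at 0 h were commoner in genes with few T at the transcript end, and the part of this in the differences between gene lists was not tested. By gene span, the median change was 0.28 in the shortest group (median 5795 bp) and 1.25 in the longest (median 130971 bp), with unlabelled shares at 0 h of 54.7% and 36.0%. By total level at 0 h, the median change was 1.15 in the lowest group and 0.24 in the highest. That level comes from the 0 h libraries, which entered both the choice of genes and the change itself. These features overlap with each other, and the values are descriptions across genes, which are not independent replicates.

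**Figure D5:**
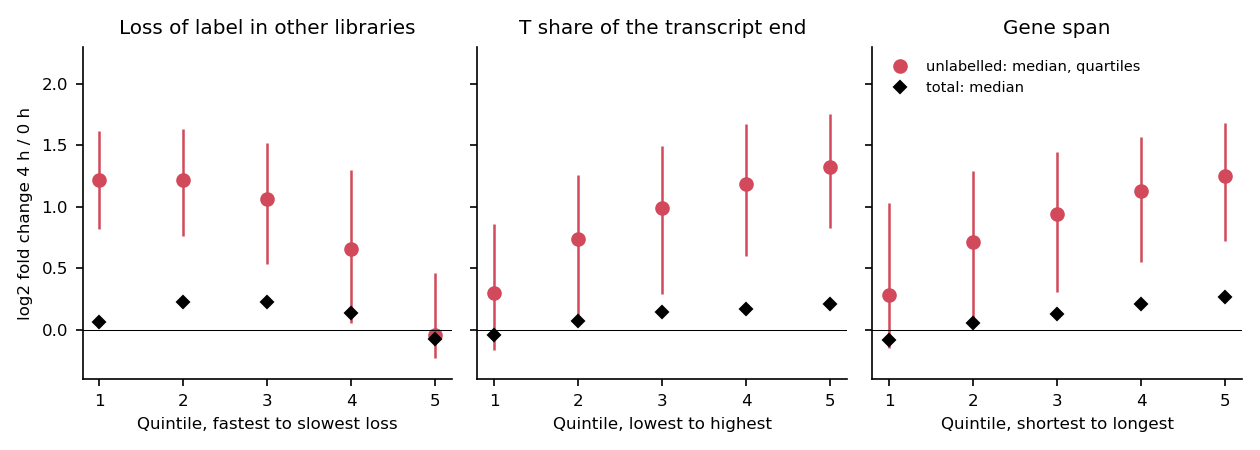
Median log2 fold change of unlabelled counts between 0 h and 4 h (red, bars from the 25th to the 75th percentile) and of total counts (black diamonds) in 5 groups of nearly equal size ordered by loss of label in other libraries (left), T share of the transcript end (middle) and gene span (right). Unlabelled medians go from 1.22 to -0.04, from 0.30 to 1.32 and from 0.28 to 1.25 across the 3 panels, and the total medians stay within a narrower band.

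Near the threshold the values ran on without a step. The 162 protein-coding genes whose lowest total count was 50 to 54 had a median log2 change of 1.03 in unlabelled counts, and the 187 whose lowest was 45 to 49 had 1.00. Below the minimum were 11506 protein-coding genes, of which 4457 had no count in any of the 4 libraries.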

How the data were processed

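The series holds 13 K562 libraries: 12 from a 4sU chase (6 times, 2 replicates each) and 1 without 4sU. The authors deposited 3 tables of whole-number read counts per gene, with total, labelled and spike-in counts, and 39 columns were used. Reads were handled with bcl2fastq 2.17.1.14, Trim Galore 0.6.5 and bedtools on builds hg38 and dm6, per the submitters' processing notes. The aligner, the treatment of strand and of multi-mapping reads, and the rule that calls a read labelled were not given in the sources used here.

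Unlabelled counts were formed as total minus labelled counts. Genes with 50 or more total counts in each of the 4 libraries of 0 h and 4 h were tested with edgeR 4.0.16 (quasi-likelihood test) with the log of the total library size as offset, at a Benjamini-Hochberg false discovery rate of 0.05 over 9036 genes. Total counts were tested in the same way, and the unlabelled share by using the gene's own total as the offset. The standard error of a log2 change is its size divided by the square root of the test's F statistic. With 2 libraries per time, each library's value is printed in place of a standard deviation. Fits were tried on simulated counts in which few genes changed, equally up and down. Most members here rose, so that trial does not cover this setting. DESeq2 1.42.0, other scalings, other count minimums, a spread shared over 12 chase libraries, a replicate block and leaving out each library were tried.

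Named genes are the 12 largest rises and falls that passed the test without overlap between times (mean of 5 or more unlabelled CPM), the highest and lowest member of each of 34 gene lists, and a fixed set of genes of interest in this line. Of these, 3 genes are not reported here. The members and lists were chosen with earlier results of these data known. Gene types and positions came from GENCODE 29. Total counts ranged from 9004529 to 17425584 per library, and a count of 0 allows up to 3 counts of that total, for counting error only. Reads without molecular identifiers are not independent molecules.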

Additional observations from a re-analysis of the deposited data

How the results depend on the processing

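Of 116 named genes, most kept their direction and their call in unlabelled counts under each alternative. Relative to the typical gene (TMM factors of the unlabelled counts), 2962 members were higher and 2373 lower. The log2 change turned negative for GATA1 (-0.55), DDIT4 (-0.69), GAPDH (-0.57), MT-CYB (-0.64), LYL1 (-0.67) and MT-ND4 (-0.30). It also did so for MLX (-0.24), PIM2 (-0.060), BHLHE40 (-0.15), MT-ND2 (-0.50) and PRAME (-0.13). That scaling moves log2 changes down by 0.76 by construction. With DESeq2, 1454 members had higher total counts (cause not tested), against 2431, and DDIT4 was at -0.021 and LYL1 at -0.0012, while unlabelled counts gave 4820 higher and 652 lower. DDIT4 was at -0.0065 with TMM factors of the total counts. A minimum of 200 counts left fewer genes to test, with 3269 higher in unlabelled counts, 1566 in total counts and 3646 in share. With no minimum, 50 members had a lower share, and the cause was not tested.

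Leaving out each library in turn gave 5006 to 5475 members higher and 334 to 637 lower in unlabelled counts, and 559 to 1106 lower in total counts. The lowest counts came without replicate 1 of 0 h (334 and 559), and without replicate 2 of 0 h they were 410 and 578, when the lone 0 h library is assumed to vary like the 4 h ones. In the same way, a lone 4 h library is assumed to vary like the 0 h ones. Genes near no change crossed 0: DDIT4 (-0.081 to 0.23), MT-CYB (-0.0022 to 0.22), CDC25B (-0.28 to 0.018) and CD3D (-0.26 to 0.090).

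Deviations of same-numbered replicates of 0 h and 4 h from their time means correlated at 0.0277 across genes. This value cannot tell whether such replicates shared a culture or a batch, since the deviations include counting error. With the replicate block, 5595 members were higher and 684 lower in unlabelled counts, 2501 and 1073 in total counts and 6098 and 129 in share. Depth limits the lowest genes, where 50 total counts leave few unlabelled counts at 0 h, and 11506 protein-coding genes below the minimum were not tested.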
